A study of Rattus norvegicus with 9 samples.

Results

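Monoamine, histamine and acetylcholine receptors were followed in the supraoptic nucleus of the rat, a part of the hypothalamus built mainly of large neurons that secrete vasopressin or oxytocin, over a course of water deprivation. The members are all probe sets whose platform annotation gives exactly 1 gene symbol that starts with Adra1, Adra2, Adrb and a digit, Chrm, Chrna, Chrnb, Htr and a digit, Drd or Hrh. This rule takes 65 of the 8799 probe sets of the array, for 45 genes, and uses no measured value. All rats were male Sprague Dawley animals of 10 to 12 weeks. The 3 groups were control rats, rats after 1 day of dehydration and rats after 3 days of it, each on 3 Affymetrix arrays. The labels name no further treatment and no transgene. They do not say whether an array holds the tissue of a single animal or of a pool, so the tests below measure the spread between these arrays, which may be partly technical. The arrays of each group carry the letters a, b and c in their titles.

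Noradrenaline, dopamine, serotonin, histamine and muscarinic acetylcholine signals are received by G-protein-coupled receptors, and each receptor prefers a certain class of G protein. Nicotinic acetylcholine receptors and the serotonin receptor encoded by Htr3a are ligand-gated cation channels instead, put together from several subunits. The supraoptic nucleus is innervated by noradrenergic fibres from the brainstem and by histaminergic fibres from the tuberomammillary nucleus, and noradrenaline acting on alpha-1 receptors is known to excite magnocellular neurons. Receptor transcripts are as a rule far rarer than those of peptide hormones. RNA of a dissected nucleus also includes glia, vessels and neighbouring neurons, so a level here cannot be assigned to a cell type, and fewer cells of a type cannot be told apart from less RNA per cell.

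The values are MAS5 signals on a linear scale, 1 per probe set and array. A probe set was taken to be in the dim range where its mean signal over the 9 arrays lay under 23.1, the 40th percentile of the 8740 probe sets that are not Affymetrix controls. For scale, the 15 probe sets for Bacillus transcripts, which rat tissue does not contain, had mean signals with a median of 5.1 and a maximum of 15.8. Of the 65 receptor probe sets, 33 (50.8 percent) lay above the dim range and 32 within it. By gene, 28 of the 45 had at least 1 probe set above the limit. A total of 12 probe sets stayed at or above 23.1 on all 9 arrays, and 12 others never reached it. The median of the mean signals was 25.7 for the receptors and 34.6 for all probe sets. A mean signal of 100 or more was found for 2 receptor probe sets (3.1 percent), against 25.3 percent of all probe sets. Signals of different probe sets depend on their probes as well as on the RNA, so they are not ranked as transcript levels here.

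The tissue label was checked against marker genes. All 12 magnocellular markers on the array lay above the dim range, with mean signals of 3209 for Avp and 2612 for Oxt. All 9 astrocyte and all 8 oligodendrocyte markers did so too, and so did 7 of 11 markers of neighbouring hypothalamic nuclei and 3 of 5 of the basal forebrain. Array c of the control group and array c of the 1-day group stood apart: their brightest signals were 2105 and 2239, against 3867 to 6295 on the other 7, and Oxt read 208.3 and 272.0 there, against 2331 to 4356. On these arrays fewer receptor probe sets reached the limit as well, 23 on control c and 27 on 1-day c, against 29 to 34 on the others. The share over all probe sets was 53.4 and 53.0 percent there and 57.9 to 63.8 percent elsewhere.

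**Figure D1:**
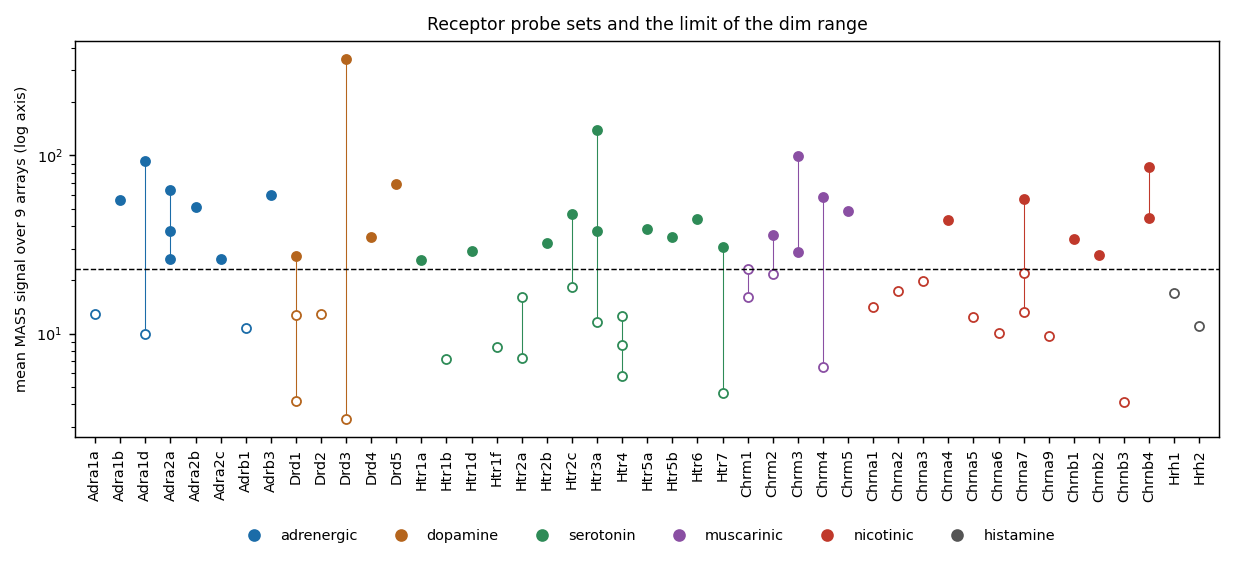
Mean MAS5 signal over the 9 arrays (log axis) of each of the 65 receptor probe sets, by gene and coloured by family; filled points lie above the dim range, open points within it, and the dashed line is the limit of 23.1. Points of a gene with several probe sets are joined, and for Drd3 they lie at 349.2 and 3.3.

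**Figure D2:**
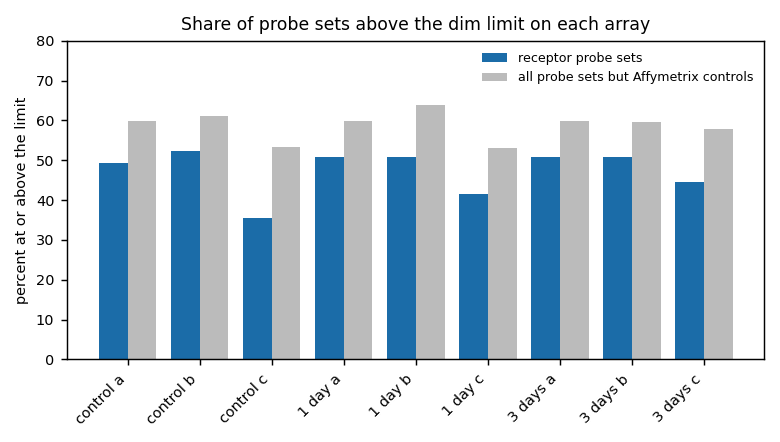
Percent of the 65 receptor probe sets (blue) and of the 8740 probe sets without Affymetrix controls (grey) at or above a signal of 23.1 on each of the 9 arrays. The receptor share lies below the share of all probe sets on every array and is lowest on control c, at 35.4 percent.

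Among the adrenergic receptors, 8 of 11 probe sets and 6 of 8 genes lay above the dim range. These were the alpha-1 receptor genes Adra1b and Adra1d, which act through Gq, the 3 alpha-2 receptor genes Adra2a, Adra2b and Adra2c, which act through Gi, and the beta-3 receptor gene Adrb3. Adra1a, with a mean signal of 12.9, and the beta-1 receptor gene Adrb1, with 10.7, were in the dim range. Adrb1 never reached 23.1, its signals lying between 6.1 and 17.1. Adra1a reached it on 2 arrays, both of the 3-day group (27.4 on b and 33.2 on c), while its highest signal on the 6 control and 1-day arrays was 15.2.

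Adra1d was the adrenergic gene with the highest signal. Its leading probe set AF071014mRNA_s_at gave 81.9, 84.7 and 49.7 on control arrays a, b and c, then 123.3, 74.1 and 39.0 at 1 day and 131.2, 119.5 and 129.2 at 3 days. Each 3-day reading exceeded each control reading, while the 1-day arrays spanned both. The group means were 72.1 ± 19.4, 78.8 ± 42.4 and 127 ± 6.3 (SD, n = 3). At 3 days the difference from control was 0.81 ± 0.39 (log2 difference ± SE, as below; 1.76-fold), and it did not pass the test over all probe sets (limma adjusted p = 1.00). The second probe set of the gene, M60654_at, was dim, at 9.9. Adra1b, the other alpha-1 gene above the limit, showed no such order, with 57.03 ± 13.7 in control, 60.3 ± 26.6 at 1 day and 51.4 ± 11.8 at 3 days.

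Adra2a, the alpha-2A receptor that also serves as an autoreceptor on noradrenergic endings, has 3 probe sets, all above the dim range, which did not behave alike. S79778mRNA_s_at read 60.5, 9.0 and 54.7 in control, 75.6, 95.6 and 55.8 at 1 day and 70.3, 82.4 and 68.7 at 3 days. The low control value of array b sets much of its difference at 3 days, which was 1.08 ± 0.54 with all arrays and 0.33 without control b. U79031_at read 33.4, 29.6 and 20.1 in control, 46.8, 73.0 and 37.1 at 1 day and 34.8, 43.2 and 22.2 at 3 days. Here the 1-day arrays lay above all controls (0.80 ± 0.40), while at 3 days a and b lay above all controls and c among them (0.22 ± 0.40). The third, M62372cds_s_at, ranged from 9.1 to 61.4 with no separation of the groups, at -0.13 ± 0.69 and -0.14 ± 0.69.

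Adra2b read 37.7, 29.4 and 51.5 in control, 63.4, 52.3 and 55.6 at 1 day and 72.6, 52.5 and 48.0 at 3 days. The 1-day arrays lay above all controls by a narrow margin, 52.3 against 51.5, and the mean difference of 0.52 ± 0.32 at 1 day (0.34 without control b) was close to that at 3 days, 0.51 ± 0.32. Adra2c stayed near the limit on every array, between 18.2 and 31.9. Adrb3, a receptor best known from fat tissue, gave 46.1 ± 24.7, 65.7 ± 32.6 and 68.6 ± 11.1, with overlapping groups (0.63 ± 0.45 at 3 days).

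The dopamine receptors had 4 of 8 probe sets and 4 of 5 genes above the dim range: the D1-like genes Drd1 and Drd5, which raise cyclic AMP, and the D2-like genes Drd3 and Drd4, which lower it. Drd2 was dim, with a mean of 12.8 and 1 array above 23.1 (control c, at 28.4). Drd3 had the brightest signal of all 65 receptor probe sets with X53944_at, which read 404.0, 279.4 and 288.1 in control, 365.1, 192.4 and 376.0 at 1 day and 395.9, 348.2 and 494.1 at 3 days. The groups overlapped, and the difference from control was -0.10 ± 0.31 at 1 day and 0.35 ± 0.31 at 3 days, or 0.22 without 3-day c. The other Drd3 probe set, A17753cds_s_at, read between 1.4 and 5.7 on all 9 arrays, all below the highest mean of the Bacillus controls, so the probe sets of this gene disagree on whether it was measurable.

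Drd5 read 66.8, 63.5 and 54.5 in control, 82.4, 19.8 and 44.2 at 1 day and 95.6, 86.7 and 106.4 at 3 days. The 3-day arrays lay above all arrays of both other groups, while at 1 day array b was far below the rest. The difference between 3 days and 1 day was 1.11 ± 0.42 (2.16-fold; limma unadjusted p = 0.0230, adjusted p = 0.998), and between 3 days and control it was 0.61 ± 0.42 (1.53-fold). Without 1-day b the former value was 0.63. Drd4 ranged from 9.6 to 96.4, with its highest value on control b, and stood at -1.15 ± 0.57 at 1 day. Drd1 was carried above the limit by S46131mRNA_s_at alone, between 16.1 and 38.3; its other probe sets had means of 12.7 and 4.2.

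Serotonin receptors made up the largest family, with 10 of 20 probe sets and 9 of 13 genes above the dim range. Htr1a, Htr1d and Htr5a are Gi-coupled, Htr5b is a close relative of Htr5a, Htr2b and Htr2c are Gq-coupled, Htr6 and Htr7 raise cyclic AMP, and Htr3a is the channel. The dim genes were Htr1b (7.2), Htr1f (8.4), Htr2a (16.1 and 7.3 with its 2 probe sets) and Htr4 (12.5, 8.6 and 5.8 with its 3). Htr2a had a single reading above 23.1, 66.0 on 1-day array b, while the other 8 arrays of that probe set lay between 2.8 and 16.7.

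Htr5b showed the largest difference of any receptor probe set tested. It read 31.5, 16.4 and 10.6 in control, 15.9, 52.4 and 24.0 at 1 day and 59.6, 59.6 and 42.7 at 3 days, and the 3-day arrays did not overlap with the controls. The means were 19.5 ± 10.8, 30.8 ± 19.2 and 54.0 ± 9.8 (SD, n = 3). Its difference at 3 days was 1.39 ± 0.50 (2.61-fold, limma unadjusted p = 0.0178, adjusted p = 1.00). By letter pair it was 0.84, 1.64 and 1.68, all positive, which already follows from the lack of overlap. The control mean of Htr5b lies in the dim range, so the probe set passed the limit through its dehydrated arrays. Htr5a, with 34.4 ± 13.6, 35.0 ± 9.9 and 46.3 ± 13.6, overlapped between groups (0.43 ± 0.41 at 3 days).

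Htr3a was measured by 3 probe sets with means of 139.2, 37.7 and 11.5. The brightest, U01227_s_at, read 152.4, 128.6 and 90.9 in control, 149.1, 123.6 and 135.5 at 1 day and 183.1, 128.4 and 160.9 at 3 days, and stood at 0.35 ± 0.27 at 3 days, or 0.15 without control c. The next, D49395_s_at, went the other way, at -1.20 ± 0.74, with readings of 60.4, 5.9 and 12.6 at 3 days against 53.4, 77.1 and 23.3 in control. Both sets of values overlapped between groups. Htr2c, a receptor widely expressed in the hypothalamus, read between 26.3 and 76.3 with its leading probe set, and its group means were 47.3 ± 18.9, 38.0 ± 9.8 and 55.8 ± 24.1. Htr1d was the serotonin gene lower in every letter pair at both times, with means of 36.9 ± 8.0, 26.1 ± 1.8 and 24.4 ± 8.6 and differences of -0.42 ± 0.39 and -0.55 ± 0.39; its groups overlapped, since control c read 28.1. Htr1a lay close to the limit at 23.2 ± 4.6, 25.1 ± 9.1 and 28.9 ± 5.0. Htr2b (32.3 over all arrays), Htr6 (44.0) and the leading probe set of Htr7 (30.4) overlapped between groups as well. The second probe sets of Htr2c (U35315_at, mean 18.1) and Htr7 (U68491_at, mean 4.6) were in the dim range.

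Muscarinic receptors had 5 of 9 probe sets and 4 of 5 genes above the dim range. Chrm3 and Chrm5 act through Gq and Chrm2 and Chrm4 through Gi, while the Gq-coupled Chrm1 was in the dim range. Its probe sets had means of 23.0, just short of the limit, and 16.03, well under it. The control arrays lay close together for Chrm3: M16407_at read 88.6, 90.7 and 86.6 there, then 86.5, 83.6 and 136.6 at 1 day and 107.6, 99.7 and 116.0 at 3 days. The 3-day arrays lay above all controls, but the difference was small, at 0.27 ± 0.27 (1.20-fold; limma adjusted p = 1.00). The other Chrm3 probe set, AB017656_s_at, read 28.5 on average and stood at 0.17 ± 0.50. With AB017655_s_at, Chrm2 followed the letters more than the groups: array c was the lowest in control (13.9), at 1 day (14.6) and at 3 days (18.3), against 26.2 to 71.2 on the others. The dim second probe set of Chrm2, J03025_at (mean 21.7), was lowest on array c in control (8.3) and at 3 days (15.7). At 1 day its lowest reading was 3.6 on array a, against 17.7 on c. Chrm4, with 58.1, and Chrm5, with 48.7, overlapped between groups, and a second Chrm4 probe set read 6.5.

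For the nicotinic receptors, 6 of 15 probe sets and 5 of 12 genes were above the dim range. Chrna4 and Chrnb2 encode the subunits of the most common heteromeric receptor of the brain, and Chrna7 encodes the subunit of the homomeric one. Chrna4 read between 27.6 and 54.6, with means of 45.1 ± 15.2, 41.7 ± 8.4 and 43.6 ± 5.5 and differences of -0.068 ± 0.36 and 0.0013 ± 0.36. Chrna7 was above the limit with L31619_at, at 49.6 ± 18.5, 60.1 ± 17.6 and 61.0 ± 9.8, and its other probe sets averaged 21.8 and 13.1. Chrnb2 read 14.3, 15.6 and 16.7 in control, 57.9, 23.9 and 37.1 at 1 day and 17.7, 56.2 and 9.0 at 3 days. All 1-day arrays lay above all controls (1.09 ± 0.59, 2.12-fold; limma adjusted p = 1.00), and at 3 days array b alone did so by a wide margin. Its control mean of 15.5 was in the dim range, so this probe set too passed through the dehydrated arrays.

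Chrnb4, the beta-4 subunit, was the nicotinic gene with the highest signal, and both of its probe sets were above the limit. J05232cds_s_at read 42.1, 18.2 and 48.9 in control, 44.7, 19.2 and 30.9 at 1 day and 50.4, 49.1 and 96.5 at 3 days. The 3-day arrays lay above all others, by little on 2 of them: 49.1 stands against 48.9 on control c. The difference was 0.81 ± 0.46 from control and 0.96 ± 0.46 from 1 day. The former was 0.42 without control b and 0.51 without 3-day c. U42976_at read 90.4, 62.2 and 52.6 in control, 94.5, 88.6 and 52.6 at 1 day and 84.2, 169.1 and 76.4 at 3 days; its groups overlapped, and the difference of 0.60 ± 0.38 from control was 0.25 without 3-day array b. In the RefSeq gene table Chrnb4 follows Chrna3 and Chrna5 with no other protein-coding gene between them. These neighbours were dim, with means of 19.6 and 12.3, as were Chrna6 and Chrnb3, which are likewise adjacent to each other (10.0 and 4.1).

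Of the remaining nicotinic subunits, Chrnb1 was above the limit, with readings from 3.8 to 64.5. Together with the dim Chrna1 (14.0) it belongs to the receptor of skeletal muscle. Chrna2 (17.2) and Chrna9 (9.7) were dim. The histamine receptor genes Hrh1 and Hrh2, which signal through Gq and Gs, were both in the dim range. Hrh1 averaged 16.8, with readings of 18.4, 35.5 and 12.7 in control, 17.2, 24.2 and 0.7 at 1 day and 7.3, 19.0 and 16 at 3 days. Hrh2 averaged 11.1 and exceeded 23.1 on 3-day array c alone, at 25.2. At these levels no difference of either gene between the groups could be measured. The histamine receptor gene Hrh3 is not analysed here.

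Probe sets of the same gene often disagreed on whether it was measurable. Of the 45 genes, 15 had several probe sets. All lay above the dim range for 3 of these (Adra2a, Chrm3 and Chrnb4), all lay within it for 3 (Chrm1, Htr2a and Htr4), and for 9 they fell on both sides. In 6 genes the highest mean was more than 5 times the lowest, with 104.9-fold for Drd3, 12.1-fold for Htr3a, 9.3-fold for Adra1d and 9.0-fold for Chrm4. What sets such pairs apart was not tested, since no probe sequences were used.

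After 1 day of dehydration no receptor probe set passed the test. The background was the same: limma called 0 of the 5247 tested probe sets (0 percent) at an adjusted p under 0.05, in this comparison and in the others below, and in the F test over the 3 groups. At an unadjusted p under 0.05 there were 0 receptor probe sets, against 1.01 percent of all. Of the 33 tested receptor probe sets 19 were higher and 14 lower than in control, with a median log2 difference of 0.023, beside 52.7 percent higher and a median of 0.020 over all probe sets. The groups did not overlap for 3 (9.09 percent), all higher: Adra2a (U79031_at), Adra2b and Chrnb2. Over all tested probe sets this share was 4.21 percent, with 2.63 percent higher and 1.58 percent lower. By family, 7 of 8 adrenergic probe sets were higher (median 0.26) and all 4 of the dopamine receptors lower (median -0.34), without any call among them. The letter pairs of the dopamine receptors did not all go the same way. Pair b was lower for Drd3 (-0.53), Drd4 (-2.88), Drd5 (-1.5) and Drd1 (-0.14). Drd3 and Drd4 were higher in pair c (0.38 and 0.17) and Drd5 in pair a (0.29), while Drd1 was lower in each pair. The dopamine receptor Drd4 had the most negative value, at -1.15, and its control readings were uneven, with 96.4 on b against 33.8 and 21.6 on the others. Its 1-day mean of 17.8 lies in the dim range.

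After 3 days 24 of the 33 receptor probe sets were higher than in control and 9 were lower. Their median was 0.28, and they ranged from -1.20 for Htr3a (D49395_s_at) to 1.39 for Htr5b. Over all tested probe sets 51.7 percent were higher and the median was 0.016. No receptor was called by limma. Both comparisons with control use the same control arrays. Between arrays of the same letter, the receptor median was 0.17 for a, 0.17 for b and 0.47 for c, beside 0.011, 0.040 and 0.039 for all probe sets. Control array c moves with this result: it gave the lowest control reading for 24 of the 33 receptor probe sets (72.7 percent), against 39.2 percent of all, and without it the median was 0.089, with 21 higher and 12 lower. That array is part of letter pair c only, and why it read lower was not tested. The sums of some marker lists also differed between control and 3 days. The summed signal of the 12 magnocellular markers was 6944 to 10513 on the control arrays, reached 7400 to 12866 after 1 day and lay between 13131 and 15875 after 3. These markers include Avp, Oxt and Th, and Th itself read higher at 3 days, so the sum does not measure tissue share alone. For the 8 blood and vessel markers above the dim range among 9 on the array, with Vwf dim, the summed signal of the list was 2323 to 2602 in control and 1568 to 2104 at 3 days. The basal forebrain list, with 3 of 5 above the dim range and Chat and Drd2 dim, had sums between 554.0 and 741.3 on the control arrays, between 582.0 and 861.4 after 1 day and between 806.7 and 858.8 after 3. Drd2 is itself one of the receptors studied here. Slc18a3, also given below among the transmitter genes, read 271.2 to 432.3 per array and so makes up a large part of these sums. The 9 astrocyte markers summed to 6588 to 11242 in control and 10819 to 13778 at 3 days, ranges that overlap. The sums of the neuron, oligodendrocyte, microglia and neighbouring hypothalamus lists overlapped between control and 3 days as well. The part of these markers in the receptor values was not tested. The medians by family were 0.41 for the adrenergic, 0.41 for the nicotinic, 0.24 for the serotonin, 0.19 for the muscarinic and 0.038 for the dopamine receptors.

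At 3 days the groups did not overlap for 6 of the 33 (18.2 percent): Adra1d, Adra2a (S79778mRNA_s_at), Drd5, Htr5b, Chrm3 (M16407_at) and Chrnb4 (J05232cds_s_at). All 6 were higher. The share over all tested probe sets was 7.74 percent, with 4.73 percent higher and 3.01 percent lower. Of these only Htr5b had an unadjusted p under 0.05 (1 of 33, or 3.03 percent, against 1.72 percent of all). As its control mean is in the dim range, it entered the test through its higher arrays, and so did Chrnb2 at 1 day, so neither count is read as support. Of these genes, 4 have further probe sets (Adra1d, Adra2a, Chrm3 and Chrnb4), and all of those overlapped between the groups. Among the 32 dim probe sets, which were not tested, 0 were separate from control at 3 days and 1 at 1 day, the Chrna7 probe set S53987_at, which was lower. Over all 3493 dim probe sets the share was 6.33 percent at 3 days and 5.41 percent at 1 day.

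Between 1 and 3 days 22 of the 33 were higher at the later time and 11 lower, with a median of 0.18, beside 50.1 percent higher and a median of 0.0013 for all. The groups did not overlap for 2 (6.06 percent), Drd5 and Chrnb4 (J05232cds_s_at), both higher at 3 days. Over all tested probe sets this was 5.72 percent, with 3.05 percent higher and 2.67 percent lower. Drd5 was the 1 receptor probe set with an unadjusted p under 0.05, against 1.83 percent of all. The dopamine receptors had a median of 0.66 here, with values of 1.11 for Drd5, 0.87 for Drd4, 0.45 for Drd3 and -0.11 for Drd1. This comparison shares the 1-day arrays with that of 1 day against control. Among the dim probe sets Adra1a read higher at 3 days than at 1 day without overlap (9.8, 27.4 and 33.2 against 6.6, 4.6 and 3.3), and Chrna2 lower (10.3, 7.2 and 4.2 against 27.5, 40.7 and 19.4). Over all dim probe sets 5.75 percent were separate between these times.

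No label says what the letters stand for, and from the values they were treated as pairing the arrays across the groups. With the letter as a block, limma again called 0, while the receptor probe sets with an unadjusted p under 0.05 became 1 at 1 day, 3 at 3 days and 3 between the times, beside 2.59, 5.15 and 5.24 percent of all probe sets. These were Adra2a (U79031_at) at 1 day, Adra1d, Htr5b and Chrnb4 (J05232cds_s_at) at 3 days, and Adra1d, Drd5 and Chrnb4 (J05232cds_s_at) between the times. The smallest blocked adjusted p among the receptors was 0.770.

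**Figure D3:**
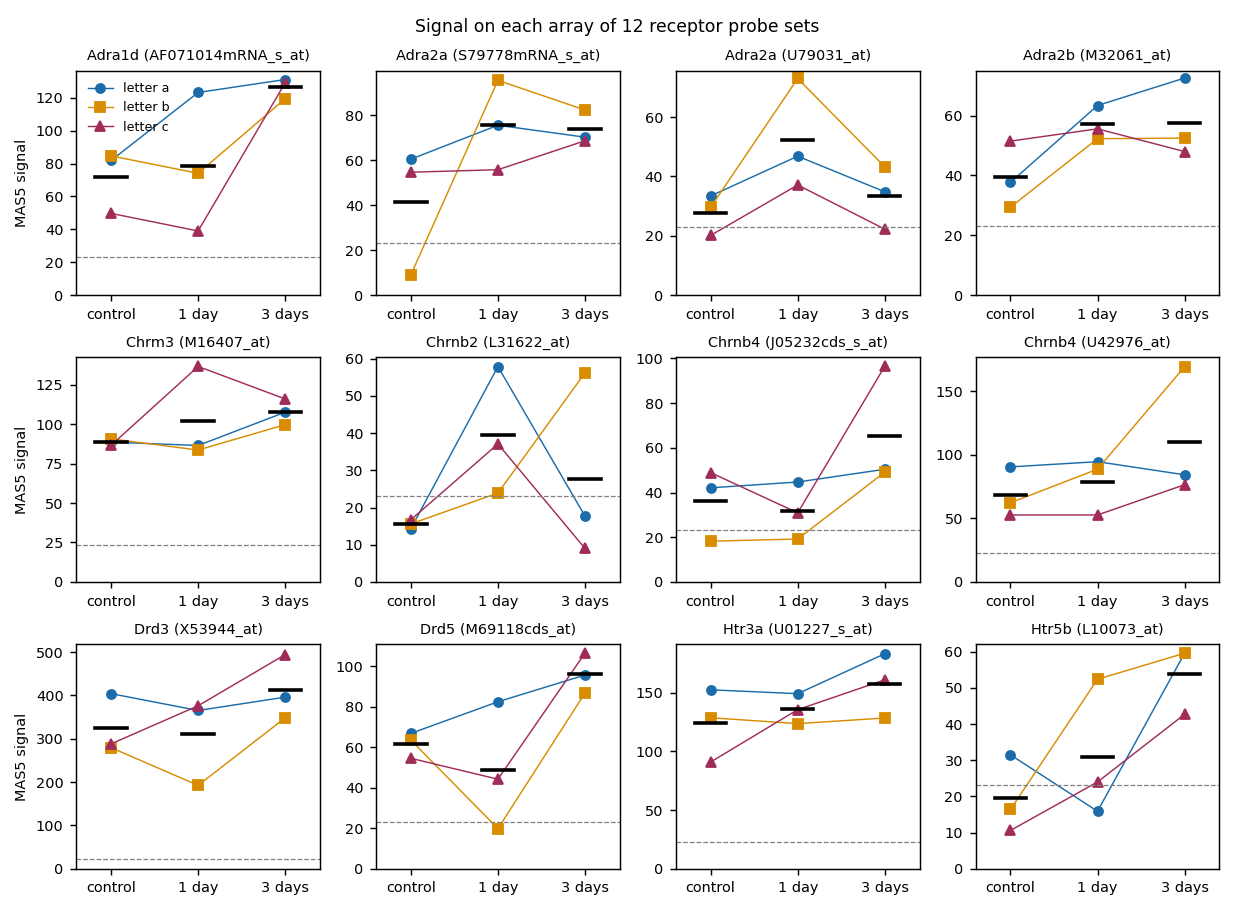
MAS5 signal on each of the 9 arrays for 12 receptor probe sets; lines join arrays with the same letter, black bars are group means (n = 3) and the dashed line is the dim limit of 23.1. In Adra1d, Drd5 and Htr5b every 3-day point is above all control arrays, while in Drd3 and Htr3a the groups overlap.

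**Figure D4:**
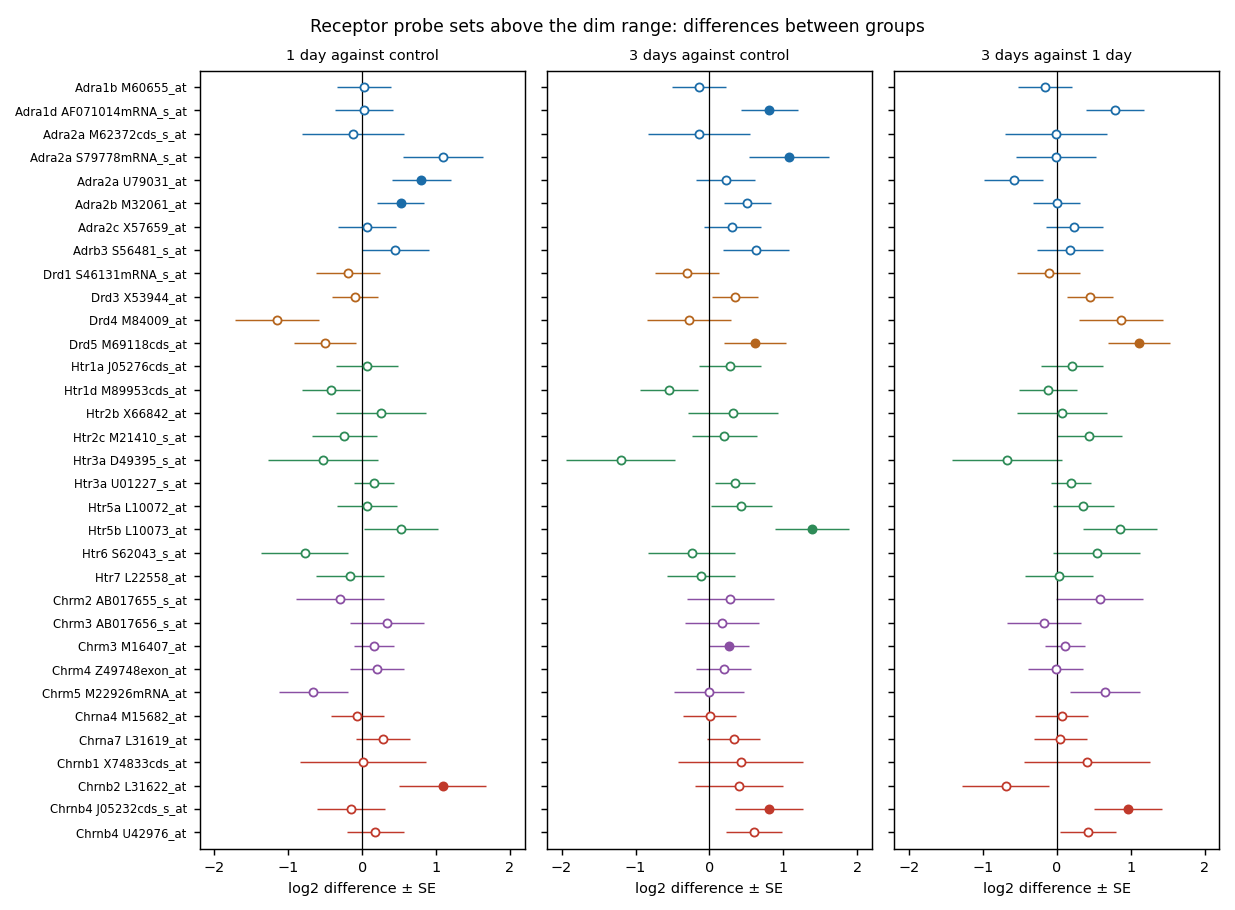
Log2 difference ± SE from limma for the 33 receptor probe sets above the dim range in the 3 comparisons, coloured by family; filled points mark groups that do not overlap. At 3 days 24 of the 33 points lie above 0, and none passed the test over all probe sets.

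The receptors varied more with the letter than with the group. On the log2 scale the letter took a median of 38.8 percent of a receptor probe set's sum of squares and the group 23.4 percent, beside 43.6 and 15.7 percent over all tested probe sets. The letter exceeded the group for 20 of the 33 receptors (60.6 percent) and for 73.7 percent of all.

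Genes that make, move or break down the transmitters, and those that carry the receptors' signals, were taken from 4 lists, with 1 probe set per gene. No member of any list passed in either direction in any comparison. Of the enzymes and transporters 11 of 20 genes on the array were tested, of which 4 were higher at 1 day and 6 at 3 days. Th, whose product, tyrosine hydroxylase, limits the rate of catecholamine synthesis, had 173 ± 40 in control, 282 ± 55 at 1 day and 291 ± 50 at 3 days (0.75 ± 0.27 at 3 days), with no overlap with control at either time. Maob, which degrades monoamines, read 211 ± 37, 145 ± 45 and 116 ± 45 (-0.91 ± 0.36 at 3 days), and its 3-day arrays lay below all controls. Slc18a3, the vesicular acetylcholine transporter, read 353 ± 24, 320 ± 75 and 418 ± 17, and its 3-day arrays lay above all controls by 0.24 ± 0.23. The genes Chat and Hdc, named here after their values were seen, encode the enzymes that make acetylcholine and histamine; they were dim, with means of 22.2 and 5.2.

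Among G-protein subunits 16 of 18 genes were tested, with 11 higher and 5 lower at both times and medians of 0.11 and 0.093. Gnas, the alpha subunit that links beta-adrenergic and D1-like receptors to cyclic AMP, read 2136 ± 627, 2379 ± 794 and 3587 ± 746, and its 3-day arrays did not overlap with either other group (0.78 ± 0.34 from control). Its lowest readings were on control c and 1-day c. The gamma subunit Gng8 stood at 1.52 ± 0.67 between the times and Gng7 at 0.50 ± 0.29 at 3 days. The groups of Gng8 overlapped, and its 1-day mean of 22.4 ± 23.3 lay in the dim range. Of 23 tested effectors 14 were higher and 9 lower at each time, with the protein kinase A subunit Prkar1b at 0.78 ± 0.39, Prkar1a at 0.26 ± 0.26 and the phosphodiesterase Pde4b at -0.64 ± 0.35 at 3 days. Of 10 tested genes of receptor desensitisation 3 were higher and 7 lower at 3 days (median -0.14). There Rgs12 stood at 0.36 ± 0.34, the receptor kinase Grk6 at 0.34 ± 0.35 and Rgs19 at -0.024 ± 0.30.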

How the data were processed

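RNA of the supraoptic nucleus was measured on 9 arrays. The deposited values are signal intensities on a linear scale, and the tool that the submitters' processing notes name is MAS5 (version not given in the sources used here). Each array's mean, trimmed by 2 percent at each end, is 100.1, so they share a scaling target. Scanner files and detection calls were not used. A probe set's gene came from the platform annotation; all 45 receptor genes matched RefSeq GRCr8 by gene ID, with 0 symbols changed. MAS5 signals near 0 carry little information.

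From the deposited intensities log2(signal + 4) was computed, which understates changes of dim genes. Only the 5247 probe sets with a mean at or above the 40th percentile were tested. All 9 arrays entered a single model of 3 group means (limma 3.58.1, R 4.3.3), with an intensity trend, 2-sided moderated tests and Benjamini-Hochberg adjustment over all 5247 probe sets per comparison at 0.05. The fit was tested on simulated data. With 3 arrays per group the number of arrays limits the precision. Figures used Python 3.11.15 and matplotlib 3.10.9.

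The members and lists were chosen with earlier results of these data known. Readings of all arrays are given for tested receptors whose groups did not overlap or whose unadjusted p was under 0.05, and for the brightest of each family. Of each list, the 3 genes with the smallest p are named. The letters were treated as pairing the arrays, which no label states. After subtraction of group means, the 9 same-letter pairs correlated at r from 0.17 to 0.47, and the 18 others between groups at -0.33 to 0.12. Deviations from a group mean cancel within the group, so these ranges are not independent of each other. Alternatives were pseudocounts of 1 and 16, no filter, the 60th percentile, quantile normalization, median centring, no trend, fits on the groups compared, the letter as a block, other dim limits, each array left out, and, chosen after seeing the data, leaving out control c with 1-day c.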

Additional observations from a re-analysis of the deposited data

How the results depend on the processing

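The counts of probe sets called, over all probe sets and over the receptors, were 0 under all 19 alternatives of the fit. These include the replicate block, which treats the letters as pairs and gave 0 calls in each comparison. The number of receptors with an unadjusted p under 0.05 ranged from 0 to 4 over the comparisons and the F test. The 4 came from the F test with the replicate block. The number of receptor probe sets above the dim range was 33, and 11 with the limit at the 60th percentile (51.9), 12 where all 9 arrays had to reach the limit, 42 at the 30th percentile, 27 where all arrays of a group had to, and 43 against the Bacillus controls. The median at 1 day was 0.16 with the filter at the 60th percentile. Leaving out 1 array at a time, the medians ranged from -0.051 to 0.13 at 1 day, from 0.089 to 0.39 at 3 days and from 0.11 to 0.26 between the times; the lowest at 3 days was without control c, and those between the times without 3-day a and without 1-day a. Without control c and 1-day c the medians were -0.073, 0.089 and 0.16. With fewer arrays groups separate more easily: without those the groups did not overlap for 17, 11 and 8 receptors (51.5, 33.3 and 24.2 percent, beside 24.8, 15.0 and 15.1 percent of all probe sets). Between the times this number was 5 after quantile normalization (15.2 percent, beside 5.77 percent of all) and 4 of 65 with no filter (6.15 percent, beside 5.73). For 3 days against control it was 7 (21.2 percent, beside 7.85) and 6 of 65 (9.23 percent, beside 7.17) under these settings. For 1 day against control it was 3 (9.09 percent, beside 4.84) and 4 of 65 (6.15 percent, beside 4.69). Of 36 differences of the 12 probe sets given by array, 9 changed sign under some alternative; the cause was not tested, and most were close to 0. Adra1d at 1 day stood at -0.0023 after quantile normalization and -0.017 after median centring; Adra2b between the times at 0.00017 with a pseudocount of 16 and 0.037 after quantile normalization. Without control c and 1-day c, 1-day values were 0.071 for Chrnb4 (J05232cds_s_at), -0.073 for Chrm3 and -0.043 for Htr3a. Leaving out 1 array, the 1-day values ranged from -0.36 to 0.43 for Adra1d, -0.54 to 0.12 for Chrnb4 (J05232cds_s_at), -0.057 to 0.28 for Chrm3, -0.044 to 0.32 for Htr3a and -0.26 to 0.21 for Drd3. Chrnb2 at 3 days ranged from -0.22 to 0.89. Between the times Chrm3 ranged from -0.016 to 0.33, Adra2b from -0.17 to 0.11 and Adra2a (S79778mRNA_s_at) from -0.20 to 0.17. MAS5 signals without scanner data do not show how far a dim probe set lies above its own background.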
